A study of Mus musculus with 35 samples.

Results

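Proteasome subunit genes were taken as the protein-coding genes of the mouse RefSeq annotation whose symbols begin with Psma, Psmb, Psmc, Psmd, Psme, Psmf or Psmg and a digit. On the 19 autosomes and both sex chromosomes the rule found 51 of 21887 protein-coding genes. Of these, 49 encode subunits, activators, an inhibitor or assembly chaperones of the proteasome. The other 2 match by symbol alone. Psmc3ip encodes a meiotic recombination factor, and Psme3ip1 a protein that binds an activator. Peaks of tagged NELFA were read at these genes in E14 mouse embryonic stem cells grown in serum with LIF and 2i. The cells carried a doxycycline-inducible transgene for NELFA with a Strep-HA tag and had received 0.4 µg/ml doxycycline for 16 h. Chromatin was precipitated from 3 replicates, in 3 libraries with a first HA antibody and in 1 with a second, beside 3 input libraries from the same induced cells. All 7 libraries are represented by 1 deposited peak list of 59485 peaks, and the other 28 libraries of the series (20 RNA-seq and 8 ATAC-seq) were not analysed here. No library from uninduced cells entered the list, so peaks of tagged NELFA and antibody signal that would arise without the transgene cannot be told apart.

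The proteasome degrades proteins that carry ubiquitin chains. Its barrel-shaped 20S core, built of alpha subunits (Psma genes) and beta subunits (Psmb genes), holds the proteolytic sites. The 19S particle that caps it has a base, with a ring of ATPases (Psmc genes) that unfold substrates, and a lid of Psmd subunits that removes ubiquitin. Chaperones assemble core and base, and Psme proteins open the core as alternative caps. Subunit genes are transcribed at steady levels in most cells, and when proteasomes fail the transcription factor Nfe2l1 raises them together through antioxidant response elements. NELFA is a subunit of the negative elongation factor, which holds RNA polymerase II shortly after it has begun transcription.

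A gene was scored as carrying a summit when the highest point of a peak lay within 1 kb of either annotated end of the gene. The list holds no value per library, so nothing below has a replicate error, read depth is unknown, and no difference was tested. Intervals on shares are 95% Wilson intervals and cover counting error only. Fold enrichment is the linear ratio that the authors' peak caller gave each peak. It moved in steps of 0.0454: 98.0% of all peaks, and all 14 peaks at the ends of proteasome genes, lay within 0.0005 of a whole number of steps. Folds that differ by 1 step are next to each other on the scale of the list.

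The stretches around the start are shown for 4 of the genes whose peaks reach into them and for 2 genes of catalytic subunits that had no peak but hold an antioxidant response element. Each run gives 250 bases before and 50 bases from the start of transcription as RefSeq places it on GRCm38.p6 (mm10), 5′ to 3′ on the strand of the gene. In the first 4, capitals mark bases inside a deposited peak. In the last 2, they mark the core of the element, TGACNNNGC.
Psmd5: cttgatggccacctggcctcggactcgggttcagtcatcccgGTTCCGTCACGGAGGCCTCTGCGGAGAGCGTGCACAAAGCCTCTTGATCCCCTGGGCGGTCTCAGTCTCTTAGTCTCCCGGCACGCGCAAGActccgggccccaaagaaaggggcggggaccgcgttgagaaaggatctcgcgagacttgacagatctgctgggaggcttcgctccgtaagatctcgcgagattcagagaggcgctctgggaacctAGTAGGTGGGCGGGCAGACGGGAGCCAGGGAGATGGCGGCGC
Psmc5: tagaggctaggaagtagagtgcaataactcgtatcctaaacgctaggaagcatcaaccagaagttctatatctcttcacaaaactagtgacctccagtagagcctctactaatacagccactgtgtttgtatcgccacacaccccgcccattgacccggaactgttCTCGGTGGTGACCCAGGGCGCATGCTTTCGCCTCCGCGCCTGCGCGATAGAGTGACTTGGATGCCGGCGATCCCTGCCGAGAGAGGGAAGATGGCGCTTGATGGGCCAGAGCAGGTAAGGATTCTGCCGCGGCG
Psma2: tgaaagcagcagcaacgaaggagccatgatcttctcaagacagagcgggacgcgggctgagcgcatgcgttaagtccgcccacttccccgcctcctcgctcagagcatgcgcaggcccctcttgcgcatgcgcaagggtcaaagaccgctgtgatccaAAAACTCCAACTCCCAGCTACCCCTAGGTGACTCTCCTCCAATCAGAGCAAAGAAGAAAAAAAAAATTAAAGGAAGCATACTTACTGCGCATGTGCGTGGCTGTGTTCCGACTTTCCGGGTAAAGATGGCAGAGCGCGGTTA
Psmg1: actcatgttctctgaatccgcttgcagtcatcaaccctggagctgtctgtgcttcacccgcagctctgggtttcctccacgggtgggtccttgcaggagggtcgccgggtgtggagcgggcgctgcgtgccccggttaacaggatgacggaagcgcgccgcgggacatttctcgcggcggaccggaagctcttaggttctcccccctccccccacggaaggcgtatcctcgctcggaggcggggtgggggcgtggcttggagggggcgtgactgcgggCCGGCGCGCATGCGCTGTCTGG
Psmb5: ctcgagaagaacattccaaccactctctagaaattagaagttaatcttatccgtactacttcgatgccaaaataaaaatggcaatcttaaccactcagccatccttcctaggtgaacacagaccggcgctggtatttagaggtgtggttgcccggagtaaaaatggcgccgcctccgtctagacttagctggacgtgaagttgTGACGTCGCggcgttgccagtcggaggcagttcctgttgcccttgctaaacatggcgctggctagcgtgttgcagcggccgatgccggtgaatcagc
Psmb6: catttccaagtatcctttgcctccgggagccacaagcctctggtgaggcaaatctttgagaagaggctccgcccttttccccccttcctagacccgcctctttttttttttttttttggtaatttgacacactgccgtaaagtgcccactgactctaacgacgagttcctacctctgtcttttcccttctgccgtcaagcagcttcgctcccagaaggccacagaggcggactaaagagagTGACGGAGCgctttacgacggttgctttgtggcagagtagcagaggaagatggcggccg
These are minus strand chr2:34870913-34871212 for Psmd5, plus strand chr11:106255935-106256234 for Psmc5 and plus strand chr13:14612992-14613291 for Psma2. Psmg1 lies on the minus strand at chr16:95990911-95991210, Psmb5 on the minus strand at chr14:54617946-54618245 and Psmb6 on the plus strand at chr11:70525107-70525406. At Psmc5 the capitals run from base 167 to the end and at Psma2 from base 159, so that both peaks cover the start. At Psmd5 the capitals fall in 2 runs, since its 2 peaks lie on either side of the start. At Psmg1 only the last 22 bases were inside the peak.

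Most proteasome genes had no summit of tagged NELFA at their ends. Of the 49 genes, 11 carried a summit (22.4%, interval 13.0 to 35.9%), against 4121 of all 21887 protein-coding genes (18.8%). With both symbol matches the count was 12 of 51 (23.5%). The share is near that of all genes. The 11 were Psma2, Psma4 and Psmb10 of the core, Psmc2, Psmc5 and Psmc6 of the base, Psmd3, Psmd7 and Psmd11 of the lid, and the chaperone genes Psmd5 and Psmg1. Their strongest folds lay between 1.82 and 2.68 with a median of 2.04, where the 4121 genes had a median of 2.22 and a maximum of 11.1. Among the strongest folds of all scored genes, Psmd5 stood at percentile 72.5 and Psmd7 at percentile 70.9, and the other 9 lay below percentile 50.

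**Figure D1:**
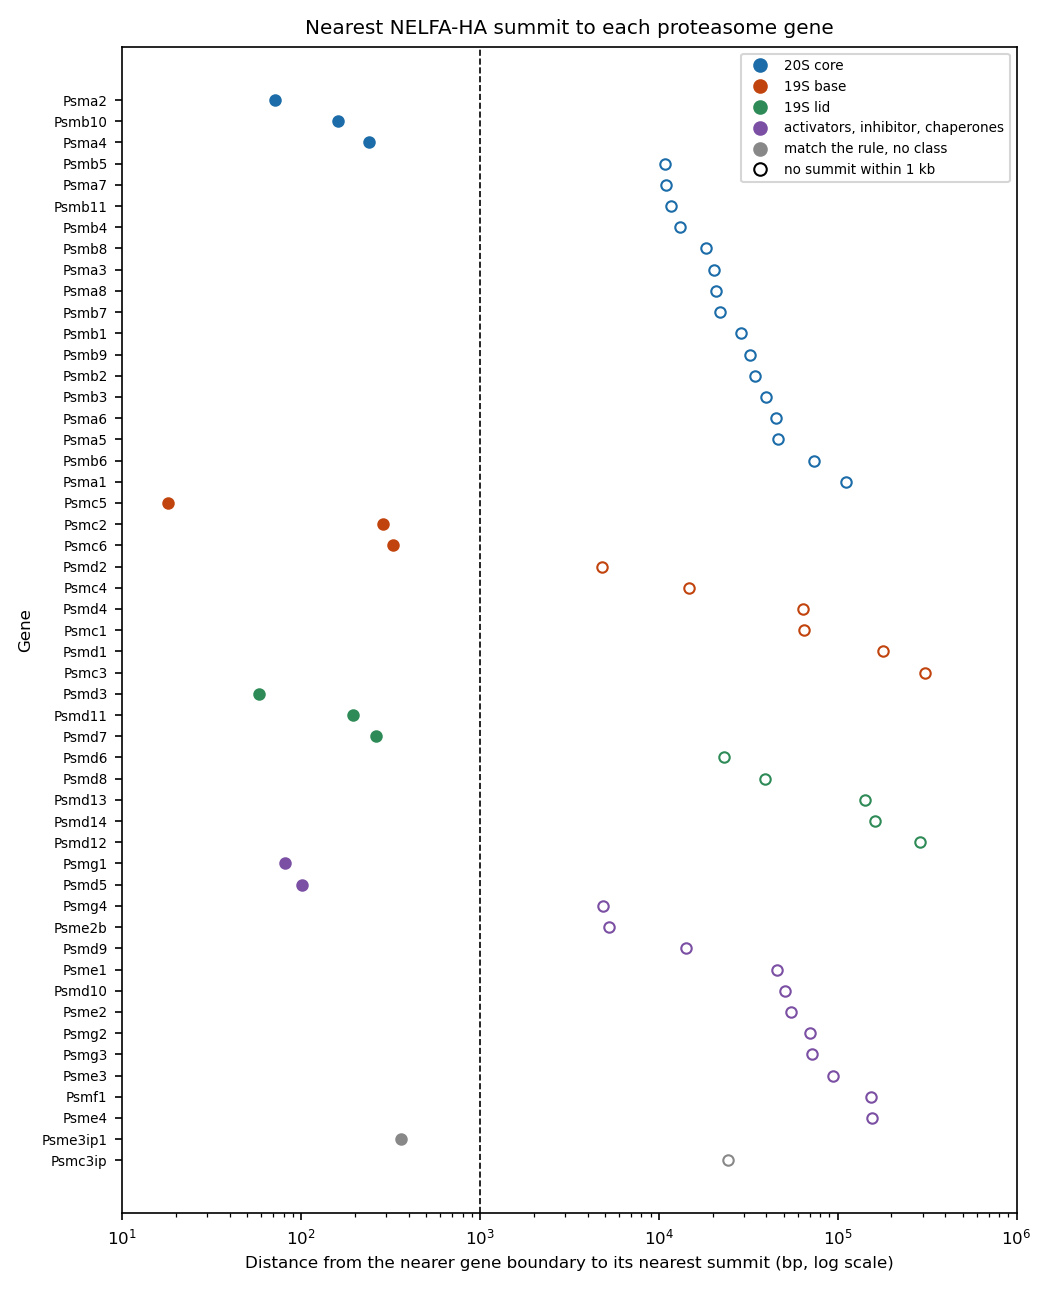
Distance in bp (log axis) from the nearer end of each of the 51 genes to its nearest summit, coloured by part of the proteasome; filled points lie within 1 kb (dashed line) and open points do not. The filled points reach from 18 to 361 bp and the open ones begin at 4817 bp, with none between.

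The genes fell into 2 sets by distance, with an empty stretch between them. The nearest summit of the 12 scored genes lay 18 to 361 bp from an end, Psmc6 (328 bp) and Psme3ip1 (361 bp) being the farthest. The next genes out were Psmd2 at 4817 bp, Psmg4 at 4900 bp and Psme2b at 5252 bp. Windows of 500 bp and 2 kb therefore gave the same 12 of 51 genes, while the share among all protein-coding genes was 16.1% and 21.8%. The genes without a summit had their nearest at a median of 42.3 kb, against 34.3 kb for all protein-coding genes without one, and the farthest was Psmc3 at 308 kb.

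In the core, 3 of 19 genes carried a summit (15.8%, interval 5.52 to 37.6%), against 18.8% of all protein-coding genes. Among the alpha genes these were Psma2 and Psma4, which encode subunits of the outer rings. Psma2, on chromosome 13 from 14613242 to 14625673, had 1 peak of fold 2.04 and −log10 q 2.99 that covered the start, with its summit 72 bp downstream. Psma4, on chromosome 9 from 54950781 to 54958034, had a peak only 54 bp wide with a fold of 1.82 and −log10 q of 1.56, its summit 162 bp downstream of the listed start. Few scored genes in the list had a weaker peak: the fold of Psma4 stood at percentile 0.704 of the strongest folds of all scored genes, and that of Psma2 at percentile 28.2. Psma1, Psma3, Psma5, Psma6, Psma7 and the germline alpha gene Psma8 had no summit within 10 kb.

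None of the 7 constitutive beta genes, Psmb1 to Psmb7, carried a summit (Wilson upper bound 35.4%, above the 18.8% of all protein-coding genes). Psmb5, Psmb6 and Psmb7 encode the subunits with the proteolytic sites, and their nearest summits lay 10.9, 73.3 and 21.9 kb away. The immune subunits replace these after interferon. Psmb8 and Psmb9, neighbours 10.9 kb apart on chromosome 17, had their nearest summits 18.4 and 32.5 kb away. Psmb10, the third immune gene, was scored through its far end. Its summit lay 2504 bp downstream of the start and 160 bp from the other end of the gene (chromosome 8, 105935728 to 105938392), with a fold of 1.95. A second peak of Psmb10, with a fold of 2.04, lay 1089 bp downstream of the start, just outside the 1 kb window. Psmb11, the thymic beta gene, is 7.31 kb from Psmb5 and had its nearest summit 11.7 kb away.

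In the base, 3 of 9 genes carried a summit (33.3%, interval 12.1 to 64.6%), against 18.8% of all protein-coding genes. All 3 encode ATPases of the ring. Psmc5 (chromosome 11, 106256185 to 106263112) had the summit nearest to a start of any proteasome gene, 18 bp downstream, in a peak of fold 2.18 and −log10 q 3.98. Psmc2 (chromosome 5, 21785275 to 21803787) had a fold of 1.91 at 287 bp upstream of its start. Psmc6 (chromosome 14, 45329823 to 45349074) had a fold of 1.82 at 327 bp downstream, and a stronger peak of 2.27 lay 2215 bp beyond its other end. The ATPase genes Psmc1, Psmc3 and Psmc4 had none, and neither did Psmd1 and Psmd2, which encode the large scaffold subunits, or Psmd4, a ubiquitin receptor. Psmd2 had 3 peaks between 4817 and 9492 bp beyond its higher-coordinate end, with folds of 2.04, 2.13 and 2.45.

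In the lid, 3 of 8 genes carried a summit (37.5%, interval 13.7 to 69.4%), against 18.8% of all protein-coding genes. Without chromosomes 6 and 8 it was 2 of 7 (28.6%), against 15.4% of all. Counting listed starts only, it was 1 of 6 (16.7%), against 18.6%. The 3 scored lid genes had a median fold of 2.22. Psmd7, which encodes the partner of the deubiquitinase in the lid, had the strongest, with a fold of 2.63 and −log10 q of 7.86, at 262 bp inside its higher-coordinate end (chromosome 8, 107580380 to 107588482). The reference table used here gives no start for Psmd7 or Psmd3, so whether that end is the promoter was not determined. Psmd7 also had 2 peaks in its interior, with folds of 2.13 and 1.77. Psmd11 (chromosome 11, 80428615 to 80473248) reached 2.22 at a summit 196 bp downstream of the start, in a peak that began beyond the start. Psmd3 (chromosome 11, 98682554 to 98695978) had a peak of fold 2.13 that covered its lower-coordinate end, 1 step below Psmc5. Psmd14, the deubiquitinase itself, had its nearest summit 161 kb away. Psmd6, Psmd8, Psmd12 and Psmd13 had none within 10 kb either.

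Among the 13 genes of activators, the inhibitor and chaperones, 2 carried a summit (15.4%, interval 4.33 to 42.2%), against 18.8% of all protein-coding genes. Psmd5, a chaperone that holds base ATPases during assembly, had the strongest peak within 1 kb of an end of any proteasome gene. Its fold was 2.68 and its −log10 q 8.29, with the summit 98 bp downstream of the start, and a second peak of fold 2.0 had its summit at −174 bp (chromosome 2, gene from 34852087 to 34870965). Psmg1, which encodes a chaperone of the alpha ring (chromosome 16, 95979933 to 95990960), had a fold of 1.86 at 81 bp downstream. The chaperone genes Psmd9, Psmd10, Psmg2, Psmg3 and Psmg4, the inhibitor gene Psmf1 and the activator genes Psme1, Psme2, Psme2b, Psme3 and Psme4 had none. Psme1 and Psme2, which stand 5.91 kb apart and respond to interferon, had their nearest summits 45.8 and 54.7 kb away.

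**Figure D2:**
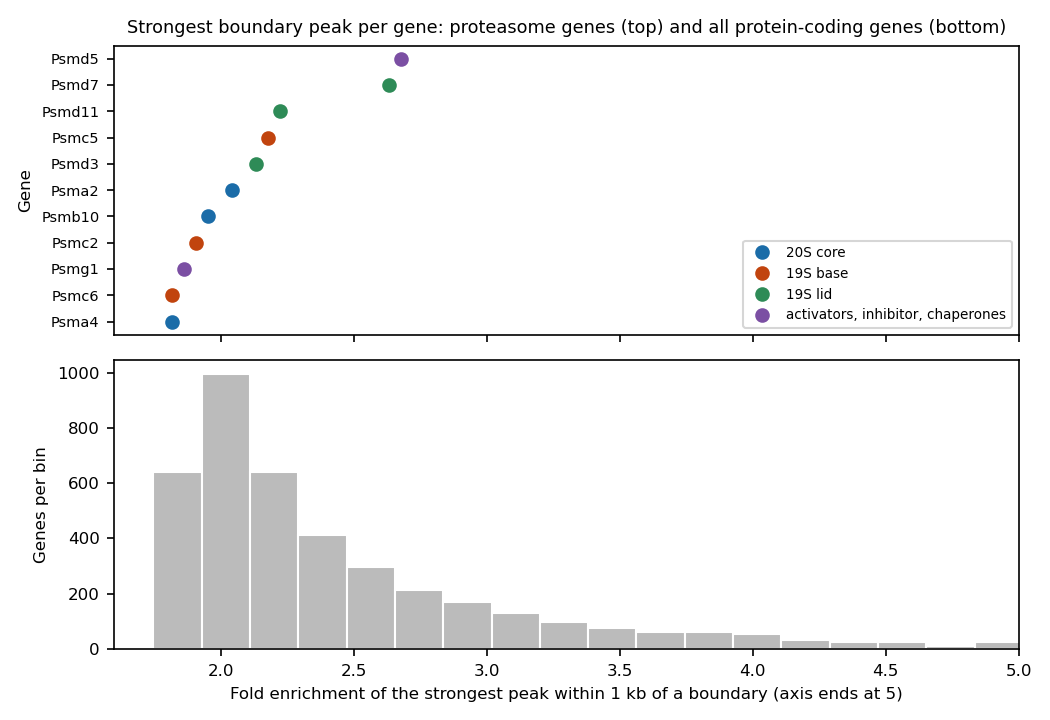
Fold enrichment of the strongest peak within 1 kb of an end, for the 11 proteasome genes with a summit (top, 1 point a gene) and as a count of all protein-coding genes in bins of 4 fold steps (bottom, axis to 5). The 11 genes lie between 1.82 and 2.68, at the lower part of the range of all genes.

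Stricter peaks left few proteasome genes. Counting peaks with a fold of 2.09 (the median of the list) or more left 5 of 49 (10.2%, interval 4.44 to 21.8%), against 12.4% of all protein-coding genes. These were Psmd5, Psmd7, Psmd11, Psmc5 and Psmd3. With a −log10 q of at least 4, Psmd5, Psmd7 and Psmd11 were left (6.12%, interval 2.1 to 16.5%), against 9.81%. The share thus stood above that of all genes with every peak and below it with stricter ones, each time with the share of all genes inside the interval. No core gene passed either limit, whereas all 3 scored lid genes passed the first, as did 2723 of the 4121 scored protein-coding genes. Psma2 of the core (2.04) and Psmd3 of the lid (2.13) lay close to the first limit, on either side of it. The difference between core and lid was not tested.

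**Figure D3:**
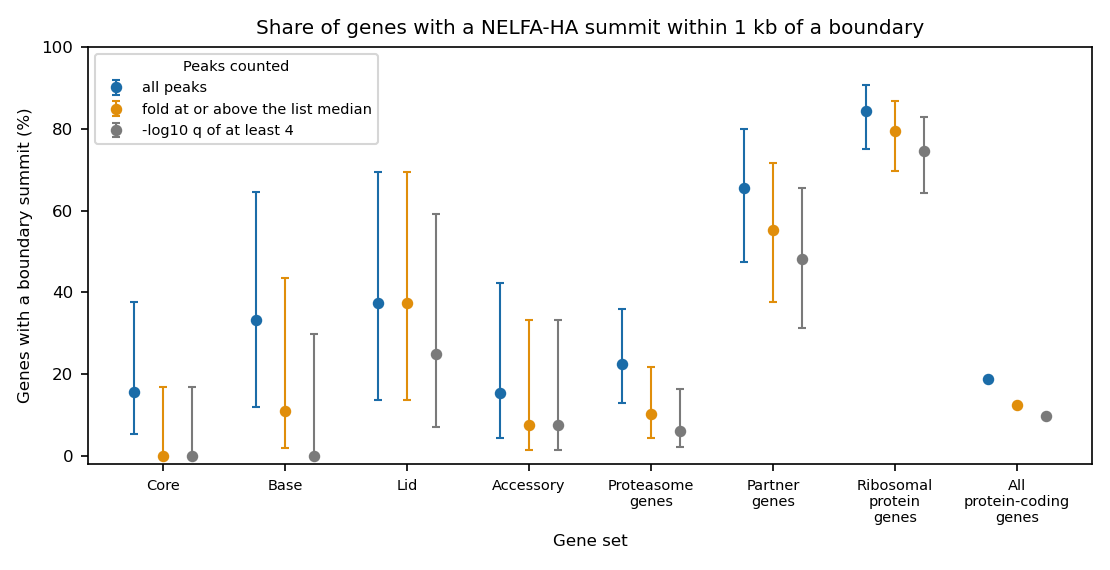
Share of genes (percent) with a summit within 1 kb of an end, with 95% Wilson intervals, for parts of the proteasome, all 49 proteasome genes, 29 partner genes, 83 ribosomal protein genes and all protein-coding genes, under 3 limits on the peaks. Proteasome genes stood at 22.4%, partner genes at 65.5%, ribosomal protein genes at 84.3% and all protein-coding genes at 18.8% when all peaks counted.

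Of the 9 scored genes with a listed start, all but Psmb10 had their summit there. RefSeq starts were available for 41 of the 49 genes, and 8 of these had a summit within 1 kb of the start (19.5%), against 18.6% of the 17492 protein-coding genes with a listed start. At the far end only Psmb10 had one (2.44%), against 4.38% of all. The 8 genes held 9 summits between 287 bp upstream and 327 bp downstream, 7 of them downstream, with a median of 81 bp downstream. Among all protein-coding genes 4206 summits lay within 1 kb of a start, 65.6% of them downstream, with a median of 71 bp downstream. Of the 7 downstream summits of proteasome genes, Psmc5 and Psma2 had theirs in a peak that covered the start itself. At Psmd5, Psmd11, Psmg1, Psma4 and Psmc6 the peak began beyond it.

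**Figure D4:**
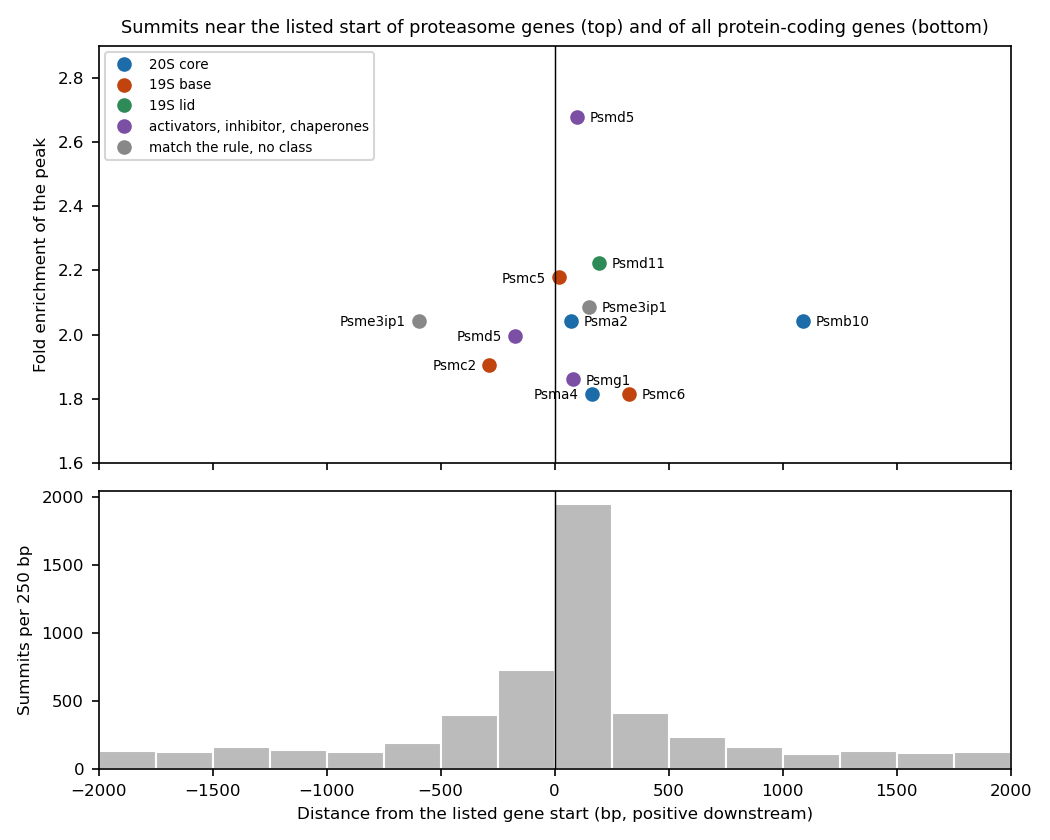
Top, fold enrichment of each peak against the distance of its summit from the listed start (bp, positive downstream) for the genes of the rule with a listed start. Bottom, number of summits per 250 bp around the starts of all protein-coding genes, highest from 0 to 250 bp downstream, where 7 of the member summits also lay.

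**Figure D5:**
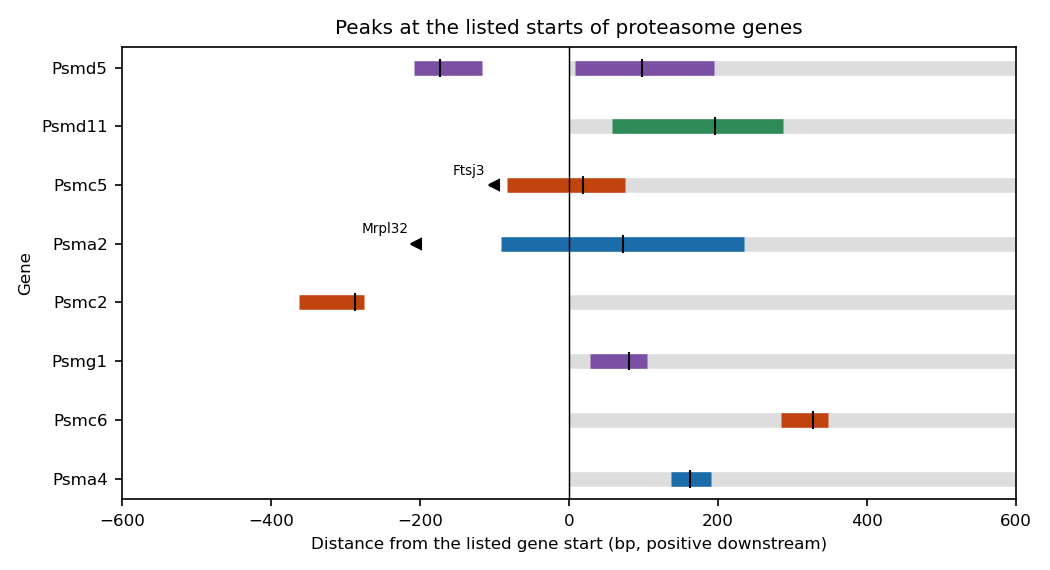
Peak intervals (coloured bars) and summits (ticks) around the listed start of the 8 proteasome genes with a start summit, strongest first; grey bars stand for the gene and arrowheads for the start of a divergent neighbour. The peaks of Psmc5 and Psma2 cover the start, and those of Psmd5 lie on both sides of it.

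Several of these starts are shared with another gene. Psmc5 faces away from Ftsj3, which encodes a ribosomal RNA methyltransferase, with 101 bp between the starts. Its peak began between the starts and covered that of Psmc5, and the summit was 18 bp downstream of Psmc5 and 119 bp upstream of Ftsj3. Psma2 faces away from Mrpl32, a gene of the mitochondrial ribosome, with 205 bp between the starts, and the summit lay 277 bp upstream of Mrpl32. The summit scored for Psmc2 lay inside its neighbour Dnajc2, which encodes a chaperone at the ribosome, 276 bp from the end of Dnajc2 that lies 10 bases from Psmc2. The summit of Psma4 lay 67 bp outside the overlapping gene AY074887. Psme3ip1 shared its 2 summits with Rspry1 and the gene model LOC115486880. Such summits cannot be assigned to 1 of the genes, and the other summits at starts, of Psmc6, Psmd5, Psmd11 and Psmg1, had no second gene end within 1 kb.

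Peaks in the interior, over 1 kb from both ends, were found at 4 of the 49 genes (8.16%), against 4374 of 21887 protein-coding genes (20%). Proteasome genes are also shorter, with a median length of 11567 bp against 17169 bp, and the part of length in that gap was not tested. Psmd5 had the strongest peak near any proteasome gene there, with a fold of 3.22 and −log10 q of 14.04, at 9087 bp downstream of its start. Psmg4, which had no summit at its ends, held 4 interior peaks between 8747 and 10308 bp downstream of its start, with folds of 1.91, 2.13, 1.95 and 2.18. Psmd7 and Psmb10 were the other 2. In control windows 5 to 7 kb outside the genes, Psme2b alone had a summit (1 of 49, 2.04%), against 8.6% of all protein-coding genes.

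Psmb10, Psmd7 and Psme3ip1 lie on chromosome 8, where peaks are dense, at 59.9 per Mb, and 58.2% of protein-coding genes carried a summit. All 3 were scored. Their 1 Mb windows held 128, 105 and 104 summits, where the other 9 scored genes had 5 to 21. Without chromosomes 6 and 8, 9 of 48 genes of the rule were scored (18.8%), against 15.4% of all. On chromosome 11, which holds 10 genes of the rule at 12.3 peaks per Mb, Psmc5, Psmd3 and Psmd11 were scored and Psmb3, Psmb6, Psmd12, Psme2b, Psme3, Psme4 and Psmc3ip were not. Outside 1 Mb windows with 30 or more peaks, 9 of 42 genes of the rule were scored (21.4%), against 13.5% of all. The part of local peak density in the calls on chromosome 8 was not tested.

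The genes with a start summit had promoters rich in G, C and CpG, as had other such genes in the list. The 300 bases around the start had a median of 63.5% G and C and 25 CpG in the 8 genes, against 55.3% and 16 CpG in the 33 without. Over all protein-coding genes the medians were 62.3% and 24 CpG with a start summit, and 54.7% and 10 CpG without. The ranges of the proteasome genes overlapped, at 19 to 37 CpG in the 8 and 2 to 41 in the 33. Psma7, at 77% G and C and 41 CpG, had no summit within 10 kb.

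Motifs were sought on both strands in these 300 bases, and a match is a description only. The core of the antioxidant response element, TGACNNNGC, was found in 6 of 41 promoters (14.6%), against 13.1% of all 17492. It was in those of Psmb5, Psmb6, Psmc6, Psmd9, Psmd12 and Psme4, and of these Psmc6 had a start summit. The element was thus in 1 of the 8 with a start summit (12.5%) and in 5 of the 33 without (15.2%). Over all protein-coding genes these shares were 15.3% and 12.6%, and neither difference was tested. Counting the start as 0, the element began at −47 in Psmb5 and at −9 in Psmb6, as the capitals above show. CCAAT, the box of the factor NF-Y, was in 14 of 41 (34.1%), against 39.2%, and TATAAA in 4 (9.76%), against 13.3%. CCGGAAG, read by ETS factors, was in 13 (31.7%), against 11.9%, in 4 of the 8 with a start summit (Psmc2, Psmc6, Psmd11 and Psmg1) and in 9 of the 33 without (27.3%). Over all protein-coding genes it was in 18.1% of promoters with a start summit and in 10.5% of those without, and neither difference was tested. The palindromic site of nuclear respiratory factor was in Psma2 and Psmg1 (4.88%), against 1.33% of all. It was thus in 2 of the 8 with a start summit (25.0%) and in 0 of the 33 without. Over all protein-coding genes these shares were 3.13% and 0.92%, and neither difference was tested. In Psmg1 the site lay inside the peak, 33 bases downstream of the start, and in Psma2 it began at −127, outside the peak. No matches of different motifs overlapped in these promoters.

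Genes that work with the proteasome, from a list outside the symbol rule, carried summits more often in this list. Of 29 such genes, 19 did (65.5%, interval 47.3 to 80.1%), against 18.8% of all protein-coding genes. The difference from the 22.4% of proteasome genes was not tested. Among ubiquitin genes, the fold was 6.08 at Ubb and 3.04 at Rps27a, which also encodes a ribosomal protein. Among the shuttle factors that carry ubiquitinated proteins to the proteasome, folds were 3.27 at Zfand5, 3.18 at Rad23b, 3.0 at Ubqln1, 2.09 at Ubqln4 and 1.86 at Zfand2a, with none at Ddi2 or Ubqln2.

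Of 6 genes of transcription factors tied to proteasome promoters, 4 were scored. Nrf1, the nuclear respiratory factor, had a fold of 5.58 on chromosome 6, where peaks are dense as well, Nfya 2.86, Nfe2l2 2.77 and Nfyb 2.13. Nfe2l1, the factor that raises subunit genes when proteasomes fail, and Nfyc had none. Among 8 further subunits and partners, the lid subunit gene Sem1 (also on chromosome 6) had 2.63, Akirin2, which brings proteasomes into the nucleus, 2.72, and the proteasome deubiquitinase genes Usp14 and Uchl5 had 2.04 and 1.95. The ubiquitin receptor gene Adrm1, the core assembly gene Pomp, Ecpas and Ube3c had none. Of the unfoldase genes Nploc4 had 2.27, and Vcp and Ufd1 none. Some ubiquitin, shuttle and factor genes thus had folds above the 2.68 of Psmd5, the highest within 1 kb of an end of a proteasome gene.

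Cytosolic ribosomal protein genes, another large set of subunit genes, carried a summit in 70 of 83 cases (84.3%, interval 75.0 to 90.6%), with a median fold of 2.97 where proteasome genes had 2.04. With a −log10 q of at least 4, 62 of 83 were left (74.7%), against 3 of 49 proteasome genes. Over all protein-coding genes the shares were 18.8% with every peak and 9.81% with that limit. Both values lay inside the intervals of the proteasome genes, so these stood near all genes. No test of the difference between ribosomal protein genes and proteasome genes was made. Pseudogenes named after proteasome genes, 6 in the annotation, had no summit within 50 kb. Psmb6-ps, Psmb7-ps1 and Psmb7-ps2 lie on chromosome X, where 2.17% of protein-coding genes were scored. All protein-coding genes without a summit had their nearest at a median of 34.3 kb, so little can be read from this count.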

How the data were processed

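Peaks came from 1 list in narrowPeak layout made from 4 immunoprecipitated and 3 input ChIP-seq libraries. The submitters' processing notes name mm10, MACS2, Bowtie2 2.2.9, Trim Galore 0.4.2 and SAMtools 1.4. How libraries were combined, how reads with several alignments were treated and which settings were used is not given in the sources used here. The deposited fold enrichment is a linear ratio per peak, the deposited significance used is a −log10 q-value (lowest 1.31), and the deposited score, that value times 10 and rounded down, was not used.

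Genes came from RefSeq tables of GRCm38.p6, with starts and strands from its promoter table. Summits within 1 kb of either gene end were counted, shares were given 95% Wilson intervals, and no test was run. Classes, partner genes, motifs and alternatives were chosen with earlier results of these data known. All scored genes are named. Paaf1, a further partner, was listed but not analysed here, and values of some other partner genes are not reported here. Counting was tested on simulated data. Counts were made in Python 3.11.15 with pandas 2.3.3 and numpy 2.4.6, and plots with matplotlib 3.10.9.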

Additional observations from a re-analysis of the deposited data

How the results depend on the processing

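The shares of proteasome genes kept the same value with windows of 500 bp and 2 kb and when peak intervals were counted instead of summits (19.2% of all protein-coding genes), and changed with the limit on peaks. Over the 51 genes of the rule the share was 11.8% for peaks of at least median fold and 5.88% for peaks with −log10 q from 4 up, where 23.5% had been scored with all peaks. The share of core genes was 0% under both limits (0 of 19, Wilson upper bound 16.8%), and that of base genes 11.1% and 0%. Over all protein-coding genes the share was 16.1% with 500 bp, 21.8% with 2 kb, 12.4% for peaks of at least median fold, 9.81% for −log10 q from 4 up, 15.4% without chromosomes 6 and 8 and 13.5% outside densely covered windows. The other 44 alternatives stayed inside the interval of the value they were set against, or, for the median fold, within its SD. The alternative without Psmc3ip and Psme3ip1 (22.4%) was chosen after seeing the data. Read depth is unknown, so a gene without a summit may lie below what the list could detect. No paired analysis was possible because the list has no column per library. Leaving out replicates was not possible for the same reason.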
